A study of Rattus norvegicus with 62 samples.

Results

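The Reg3 lectins are small secreted proteins with a C-type lectin fold. The count tables of this series hold 3 of them, Reg3a, Reg3b and Reg3g, and the 3 were found by their symbols, once each among 40982 genes in both tables. They were chosen with earlier values of these libraries known: Reg3b and Reg3a stood among the largest increases of injured over uninjured ganglia at 24 h, so their side difference at 24 h is given below as a description with no test. The other 4 arms were not used in that choice, although Reg3b was already known as a large increase in females at 1 week.

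The libraries are poly-A RNA from L4 (lumbar) dorsal root ganglia of Rattus norvegicus, the clusters of sensory neuron bodies beside the spinal cord, after chronic constriction injury (CCI), in which ligatures are tied loosely round a nerve. The ganglion of the injured side (ipsilateral) is set against that of the opposite side (contralateral) of operated rats, so the contralateral ganglia are not those of unoperated animals. There are 62 libraries in 5 arms: males at 24 h (6 ipsilateral and 6 contralateral), males at 1 week (7 and 7), males at 5 weeks (5 and 5), females at 1 week (7 and 7) and females at 5 weeks (6 and 6). The labels used here give no genotype, strain or age, and each ganglion was read as bulk tissue. More cells of a kind and more RNA per cell therefore cannot be told apart in any result below. For males at 1 and 5 weeks the labels do not say that libraries came from separate animals, so p-values there measure the spread between these libraries.

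Reg3 proteins are best known from the gut, where in mice Reg3g and Reg3b bind bacteria and are induced through the cytokine IL-22 and the transcription factor STAT3, and from the inflamed pancreas, which gave them the name pancreatitis-associated proteins (PAP). Rat Reg3b encodes PAP-I, also described as Reg-2, a Schwann cell mitogen made by injured motor and sensory neurons and placed downstream of cytokines of the IL-6 family. Rat Reg3a encodes PAP-II and Reg3g encodes PAP-III. The glycosyltransferase Extl3 has been proposed as a Reg3 receptor in mouse and human cells.

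The 3 genes lie together on chromosome 4 in the mRatBN7.2 coordinates of the count tables. Reg3b (GeneID 24618) spans chr4:110861775-110865015 on the plus strand, Reg3a (GeneID 171162) spans chr4:110872398-110875157 on the plus strand, and Reg3g (GeneID 24620) spans chr4:110922805-110927803 on the minus strand. Their combined exon lengths are 778, 917 and 3492 bases. The related gene Reg1a lies between Reg3a and Reg3g. Since the members are neighbours with related sequences, the 250 bases before each start are shown, 5′ to 3′ on the strand of the gene, from RefSeq on the build GRCr8 (a different build from the count tables), with matches to the searched motifs in capitals. RefSeq lists 2 promoters for Reg3a, and the one at the start of the gene is shown. Reg3b is at chr4:112419526-112419775 on the plus strand, Reg3a at chr4:112430147-112430396 on the plus strand and Reg3g at chr4:112484739-112484988 on the minus strand.
Reg3b: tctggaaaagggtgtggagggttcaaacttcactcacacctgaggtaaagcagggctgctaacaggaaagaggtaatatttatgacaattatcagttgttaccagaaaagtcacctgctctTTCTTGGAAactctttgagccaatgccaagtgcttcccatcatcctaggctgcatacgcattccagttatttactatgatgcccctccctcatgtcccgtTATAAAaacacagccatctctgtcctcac
Reg3a: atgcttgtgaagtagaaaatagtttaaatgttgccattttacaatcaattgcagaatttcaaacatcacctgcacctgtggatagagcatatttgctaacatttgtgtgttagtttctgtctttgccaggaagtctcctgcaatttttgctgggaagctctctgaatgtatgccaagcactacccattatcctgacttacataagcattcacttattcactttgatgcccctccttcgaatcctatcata
Reg3g: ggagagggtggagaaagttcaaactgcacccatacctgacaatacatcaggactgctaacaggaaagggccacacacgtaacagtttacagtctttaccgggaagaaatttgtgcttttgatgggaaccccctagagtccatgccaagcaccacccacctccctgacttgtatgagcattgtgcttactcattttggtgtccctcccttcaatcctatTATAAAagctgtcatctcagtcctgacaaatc

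4 motifs were searched on both strands of windows of 300 bases, from 250 before to 50 after the start: the STAT motif TTCNNNGAA, the AP-1 motif TGANTCA, the CRE motif TGACGTCA and the TATA motif TATAAA. The Reg3b window held a STAT match, TTCTTGGAA, whose first base lies at -129 from the start, and a TATA match at -29. The Reg3g window held a TATA match at -32, and the Reg3a window matched none of the 4. The STAT motif reads the same on both strands, so its match counts once. Of 27457 promoter windows of that length, 8.68% held the STAT motif, 7.33% the AP-1 motif, 1.91% the CRE motif and 14.3% the TATA motif. In pairwise alignment Reg3b and Reg3a were 70.7% identical over 259 aligned bases, Reg3b and Reg3g 70.3% over 283, and Reg3a and Reg3g 73.0% over 244. A match or its absence describes these letters and nothing about binding in the ganglion.

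Library totals ran from 16.9 to 33.5 M estimated counts. Levels are given as counts per M reads counted (CPM) on library sizes scaled by TMM over all 62 libraries. The libraries of males at 1 and 5 weeks were deposited in a table of their own, so at 1 and 5 weeks sex and count table cannot be told apart. The summed level of 14 sensory neuron markers ran between 13430 and 17692 CPM over all libraries, and Atf3, a transcription factor of injured neurons, was higher in the ipsilateral group of every arm. Abundant markers such as Nefh and Tubb3 weigh most in that sum, and opposite changes can cancel in it. In males at 1 week the log2 fold change, ipsilateral over contralateral, was -0.68 for Nefh and 0.50 for Tubb3. Counts of markers that rose and fell at 1 week are given below.

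Reg3b, the gene for PAP-I, was the most abundant member in every ipsilateral group and was low in every contralateral one. In males at 24 h the ipsilateral libraries had a lowest value of 15.5, a median of 25.1 and a highest value of 28.1 CPM, against 0.332, 1.07 and 1.29 CPM in the contralateral libraries. In males at 1 week the ipsilateral libraries had 36.5, 43.0 and 68.4 CPM in the same order, against 0.455, 0.842 and 1.17 CPM contralaterally. Contralateral libraries held from 7 to 35 counts of Reg3b in these arms, and the lowest ipsilateral library of both arms stood far above the highest contralateral one.

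In males at 5 weeks the ipsilateral libraries had 8.04, 22.8, 26.2, 44.8 and 21.3 CPM of Reg3b, against 0.640, 0.810, 1.24, 1.46 and 1.88 CPM contralaterally. In females at 1 week the lowest, median and highest ipsilateral values were 36.3, 45.6 and 81.8 CPM, against 0.411, 0.983 and 1.6 CPM contralaterally. In females at 5 weeks they were 4.25, 14.9 and 37.97 CPM, against 0.0492, 0.231 and 1.06 CPM contralaterally. Ipsilateral and contralateral groups overlapped in none of the 5 arms, and the ipsilateral value was the higher in all 31 same-numbered pairs. Both counts include the 24 h arm, on which Reg3b was chosen. No share of all genes is given for them, and the shares that follow are of calls, another measure. As background, 8.23% of the genes tested were called higher on the injured side in males at 24 h, 23.6% in males at 1 week, 16% in males at 5 weeks, 23.9% in females at 1 week and 22.9% in females at 5 weeks. As a ratio of the highest to the lowest library, the females at 5 weeks spread widest on both sides, and their lowest contralateral library rests on 1 count.

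**Figure D1:**
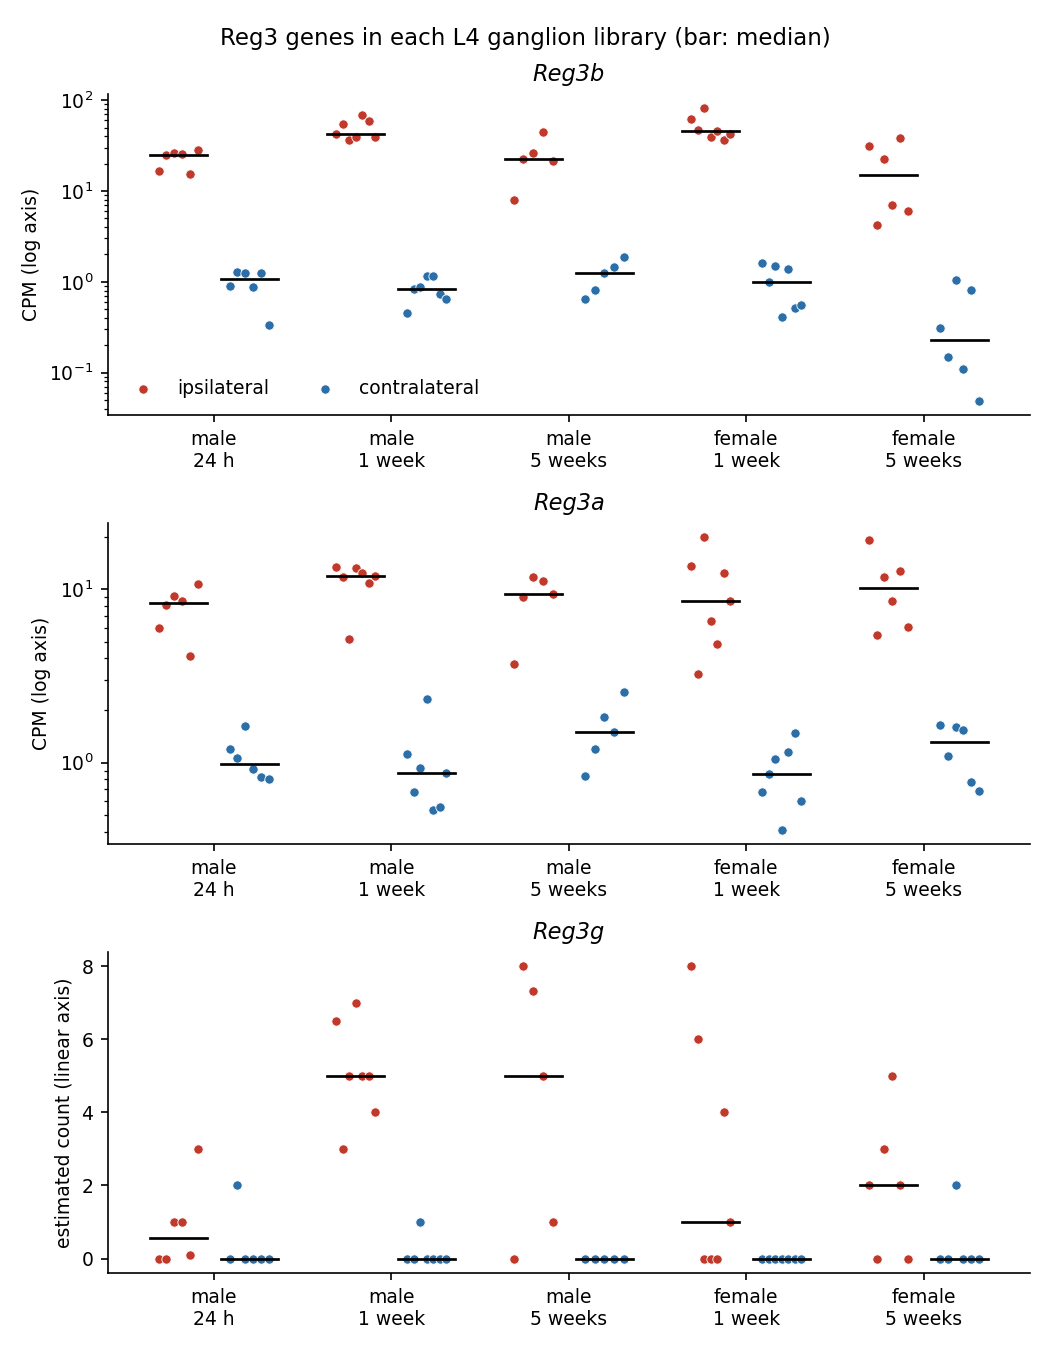
Reg3b and Reg3a in CPM on a log axis and Reg3g in estimated counts on a linear axis, 1 point per library, with ipsilateral libraries (red) left of contralateral ones (blue) in each of the 5 arms and a bar at the group median. Ipsilateral and contralateral points of Reg3b and Reg3a are apart in every arm, and Reg3g reaches at most 8 counts in any library.

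Reg3b rose on the injured side in all 4 arms that were tested. The log2 fold change, ipsilateral over contralateral, was 5.83 (SE 0.328) in males at 1 week, 4.33 (SE 0.387) in males at 5 weeks, 5.70 (SE 0.450) in females at 1 week and 5.41 (SE 0.572) in females at 5 weeks. The adjusted p of the quasi-likelihood test of edgeR over all genes was 5.52e-12, 1.99e-08, 1.93e-12 and 3.24e-09 in that order. With so many genes called, a call alone sets a gene little apart; Reg3b ranked 28, 59, 33 and 33 by fold change among 18980, 18980, 18125 and 18125 genes. At 24 h in males the fold change was 4.52 (SE 0.491) and the rank 9 among 18125 genes; this is the contrast the gene was chosen on.

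Reg3a, the gene for PAP-II, also stood higher on the injured side in every arm, with smaller folds. In males at 24 h the lowest, median and highest ipsilateral values were 4.12, 8.36 and 10.8 CPM, against 0.807, 0.988 and 1.63 CPM contralaterally. In males at 1 week they were 5.17, 12 and 13.4 CPM, against 0.533, 0.868 and 2.33 CPM contralaterally. In both arms the groups stayed apart, and the low ipsilateral value of 5.17 CPM at 1 week came from replicate 3 while the others lay at 10.9 CPM or above.

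In males at 5 weeks the ipsilateral libraries had 3.69, 9.05, 11.8, 11.2 and 9.47 CPM of Reg3a, against 0.837, 1.19, 1.84, 1.51 and 2.57 CPM contralaterally. In females at 1 week the lowest, median and highest ipsilateral values were 3.24, 8.59 and 20.05 CPM, against 0.411, 0.855 and 1.49 CPM contralaterally. In females at 5 weeks they were 5.45, 10.2 and 19.2 CPM, against 0.689, 1.31 and 1.65 CPM contralaterally. The groups overlapped in no arm, and Reg3a too was higher ipsilaterally in all 31 pairs. Both counts again include the 24 h arm, on which Reg3a was chosen, and have no share of all genes beside them.

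The log2 fold change of Reg3a was 3.49 (SE 0.314) in males at 1 week, 2.48 (SE 0.363) in males at 5 weeks, 3.49 (SE 0.366) in females at 1 week and 3.12 (SE 0.384) in females at 5 weeks. By edgeR the adjusted p was 5.22e-09, 1.13e-05, 8.67e-10 and 5.28e-08 in that order, and Reg3a ranked 90, 137, 90 and 80 by fold change. At 24 h in males its fold change was 2.85 (SE 0.390) and its rank 35. Both tested members were thus called higher in each of the 4 arms.

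**Figure D2:**
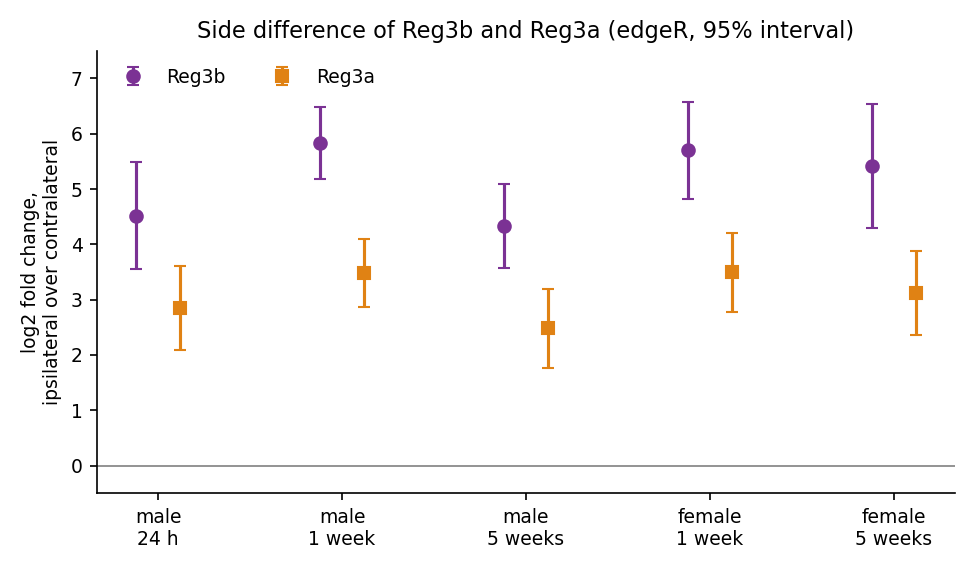
Log2 fold change of Reg3b (circles) and Reg3a (squares), ipsilateral over contralateral, in each arm, with 95% intervals from the edgeR fit of each count table. Reg3b lies between 4.33 and 5.83 and Reg3a between 2.48 and 3.49, and no interval reaches 0; the 24 h values are those the genes were chosen on.

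Reg3g, the gene for PAP-III, was close to the limit of detection and passed the low-count filter in neither table. In males at 1 week the ipsilateral libraries had between 3 and 7 estimated counts each, 35.5 in all, against 1 count in all contralaterally, a ratio of 35.4 per M counts (95% counting interval 6.04 to 1456). All 7 ipsilateral libraries stood above all 7 contralateral ones. An exact two-sided permutation test on log2(CPM + 0.1), with libraries taken as unpaired, gave p = 0.000583, the smallest such a test allows here. It was 0.00186 after adjustment over 16 such tests. These cover Reg3b, Reg3a, Reg3g and Reg1a in the 4 arms tested. The large differences of Reg3b and Reg3a make the adjustment milder for Reg3g and Reg1a. In males at 5 weeks the ipsilateral libraries had 0, 8, 7.33, 5 and 1 counts, against 0 in each contralateral library (exact permutation p = 0.0476, adjusted 0.0586). This is 6.56-fold higher when the contralateral group is set at a floor of 3 counts over the group. That fold takes the ipsilateral counts as they stand and is no lower limit. 2 of these 5 ipsilateral libraries held at most 1 count.

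In females at 1 week the ipsilateral libraries held 8, 6, 0, 0, 0, 4 and 1 counts of Reg3g, against 0 in each contralateral library. This is 6.49-fold higher over the group by the same floor (exact permutation p = 0.0699, adjusted 0.0746). In females at 5 weeks they held 2, 0, 3, 5, 2 and 0 counts, against 2 in all contralaterally, a ratio of 5.72 (95% counting interval 1.27 to 52.6; exact permutation p = 0.0606, adjusted 0.0693). In males at 24 h they held 5.11 counts in all, against 2 contralaterally, a ratio of 2.53 (0.406 to 26.0). At this depth a side difference of Reg3g passed the adjusted threshold of the unpaired permutation test in males at 1 week. It did not pass in the other arms tested. By edgeR without the low-count filter it was called in males at 1 and 5 weeks (adjusted p = 6.62e-05 and 0.0008) and in females at 1 week (adjusted p = 0.00388), and not in females at 5 weeks (adjusted p = 0.177). Intervals cover counting error only, and the folds from a floor leave out the error of the ipsilateral counts. The long non-coding RNA LOC102556035 overlaps Reg3g on the other strand and the strand setting of the counting is not given in the sources used here, but it held at most 4 counts in any group summed.

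The order of the ipsilateral groups by mean level of Reg3b was females at 1 week (50.6 ± 16.1 CPM, SD, n = 7), males at 1 week (48.8 ± 12.2, n = 7), males at 5 weeks (24.6 ± 13.2, n = 5), males at 24 h (22.7 ± 5.33, n = 6) and females at 5 weeks (18.2 ± 14.5, n = 6). The groups at 1 week differed from each other by less than their SD, as did the other 3 among themselves. For Reg3a the order was males at 1 week (11.3 ± 2.84 CPM, n = 7), females at 5 weeks (10.7 ± 5.15, n = 6), females at 1 week (9.94 ± 5.86, n = 7), males at 5 weeks (9.05 ± 3.21, n = 5) and males at 24 h (7.80 ± 2.39, n = 6), with no neighbours apart by more than their SD. Levels of males at 1 and 5 weeks and of the other arms come from separately deposited tables.

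Whether the side difference changed with time or sex was tested as an interaction in edgeR. In males the side difference of Reg3b was smaller at 5 weeks than at 1 week by a log2 value of -1.50 (SE 0.571). The adjusted p by edgeR was 0.331 in the fit without a replicate block. With that block (the numbers taken as pairs) the value was -1.54 with an adjusted p of 0.0184. In that contrast 0.211% of genes were called without the block. For Reg3a the male value was -1.01 (95% interval -1.96 to -0.05). By edgeR its p was 0.0505 before adjustment and 0.476 after it, so the interval is slightly too narrow here. In females the difference at 5 weeks minus 1 week was -0.28 for Reg3b (95% interval -2.13 to 1.56, adjusted p = 0.900) and -0.37 for Reg3a (-1.43 to 0.69, adjusted p = 0.738), in a contrast with 13.5% of genes called. The sign of the female Reg3b value turned, to 0.26, without the contralateral library of replicate 3.

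The side difference in females minus that in males at 1 week was -0.15 for Reg3b (95% interval -1.39 to 1.10, adjusted p = 0.976 by edgeR) and -0.01 for Reg3a (-1.09 to 1.07, adjusted p = 0.999), where 1.11% of genes were called. At 5 weeks it was 1.05 for Reg3b (-0.61 to 2.7, adjusted p = 0.689) and 0.60 for Reg3a (-0.49 to 1.68, adjusted p = 0.742), where 2.11% were called. These intervals still hold differences of more than 1 log2 unit in either direction at 1 week. The contralateral ganglia at 5 weeks against 1 week gave 0.52 for Reg3b (adjusted p = 0.547) and 0.69 for Reg3a (adjusted p = 0.265) in males, and -1.20 (adjusted p = 0.384) and 0.46 (adjusted p = 0.593) in females, by edgeR, where 13.5% and 10.7% of genes were called in males and females.

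The balance of the members shifted with injury. Per kilobase of exon, males at 1 week had 62.7 ± 15.6 CPM of Reg3b and 12.3 ± 3.09 CPM of Reg3a ipsilaterally (SD, n = 7), against 1.08 ± 0.337 and 1.09 ± 0.679 CPM contralaterally, so the members stood level in the uninjured-side ganglia and Reg3b led on the injured side. The median ratio of Reg3b to Reg3a per exon length within a library was 3.42 ipsilaterally and 1.01 contralaterally in males at 24 h, 5.42 and 1.10 in males at 1 week, 2.65 and 0.863 in males at 5 weeks, 5.76 and 1.36 in females at 1 week, and 1.5 and 0.189 in females at 5 weeks. On the log2 scale the ipsilateral mean exceeded the contralateral one by 2.27 in males at 1 week, 1.76 in males at 5 weeks, 2.45 in females at 1 week and 2.66 in females at 5 weeks. Exact two-sided permutation tests, which took the libraries as unpaired, gave p = 0.000583, 0.00794, 0.000583 and 0.0108 in that order. Adjusted over 8 ratio tests these were 0.00233, 0.0144, 0.00233 and 0.0144. The tests were chosen after the values were seen.

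The ratio in ipsilateral ganglia was also lower at 5 weeks than at 1 week. In these ganglia the difference in log2 ratio, 5 weeks minus 1 week, was -2.10 in females (exact permutation p = 0.00175, adjusted 0.00466) and -0.78 in males (exact permutation p = 0.0164, adjusted 0.0188). In contralateral ganglia it was -2.31 in females (exact permutation p = 0.0105, adjusted 0.0144) and -0.26 in males (exact permutation p = 0.534). The contralateral Reg3b of females at 5 weeks is the least precise part of this comparison, with 7, 3, 23, 2, 16 and 1 counts in the 6 libraries.

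**Figure D3:**
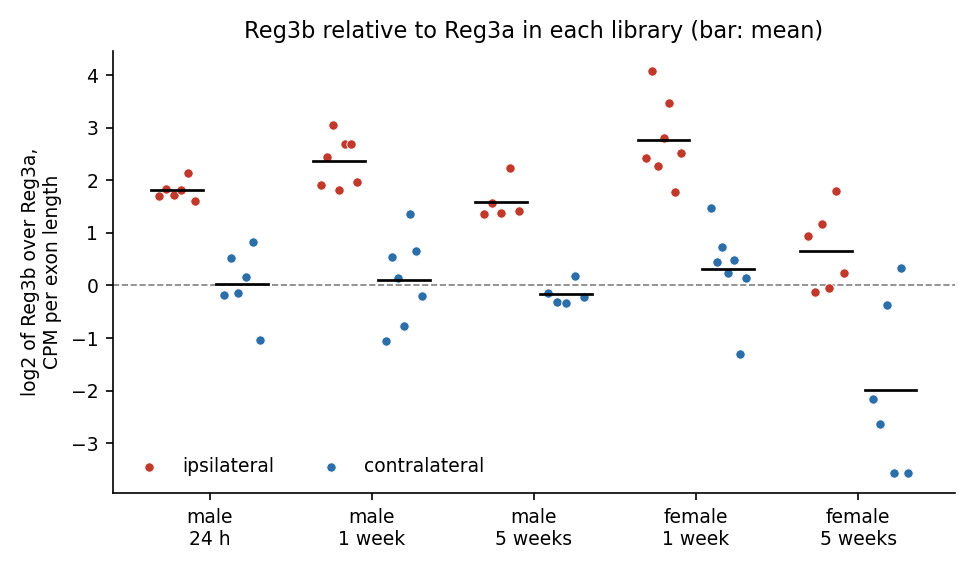
Log2 ratio of Reg3b to Reg3a per exon length in each library, ipsilateral left of contralateral, with a bar at the group mean and a dashed line at equal levels. Ipsilateral means run from 0.66 to 2.77; contralateral means lie between -0.17 and 0.32 except in females at 5 weeks, where the mean is -2.0.

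In females at 5 weeks the ipsilateral libraries fell into separate levels of Reg3b. Animals 1, 3 and 5 had 31.3, 22.8 and 37.97 CPM ipsilaterally, against 0.312, 1.06 and 0.822 CPM contralaterally. Animals 2, 4 and 6 had 4.25, 7.01 and 6.07 CPM ipsilaterally, against 0.149, 0.11 and 0.0492 CPM contralaterally. The 3 animals high on the injured side were also the upper 3 on the other side, but there the values did not separate at this point: animal 1, the lowest of the upper 3, had 7 counts and animal 2, the next, had 3. The fold within an animal ran from 21.5 to 123 with a median of 55.1. Ipsilateral Reg3a was also higher in each of animals 1, 3 and 5, with 19.2, 11.9 and 12.8 CPM in animals 1, 3 and 5 and 5.45, 8.58 and 6.07 CPM in animals 2, 4 and 6. Contralateral Reg3a did not follow this split, with 1.65, 1.61 and 0.771 CPM in animals 1, 3 and 5 and 1.09, 1.53 and 0.689 CPM in animals 2, 4 and 6. Atf3 did not split in this way: its ipsilateral levels were 181, 224 and 211 CPM in animals 1, 3 and 5 and 145, 148 and 245 CPM in animals 2, 4 and 6. The animals were set apart by these values and no test was made between them.

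**Figure D4:**
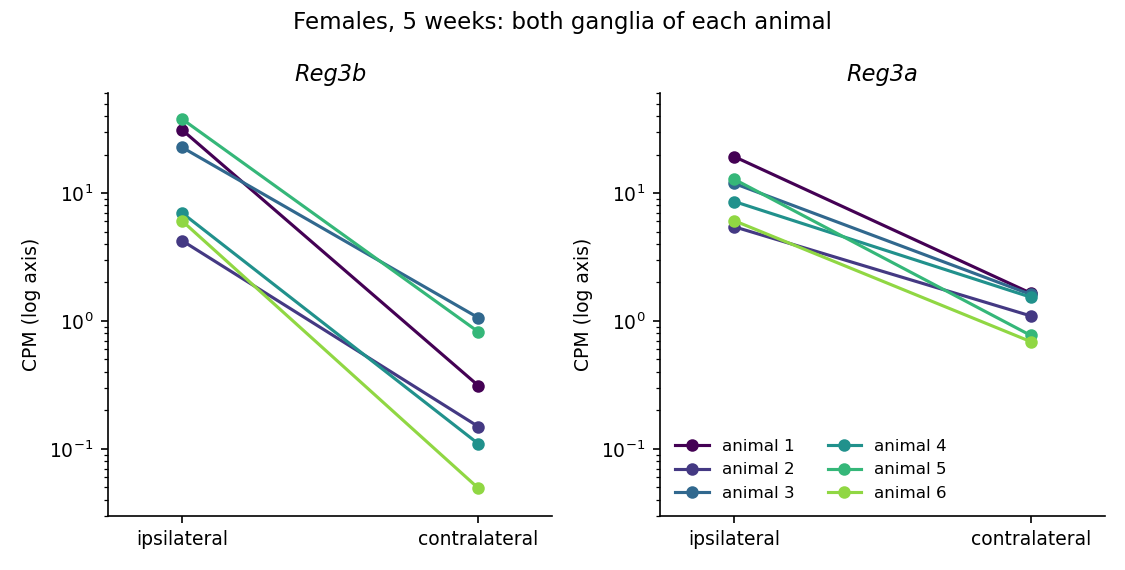
Reg3b (left) and Reg3a (right) in CPM on a log axis for the 6 females at 5 weeks, with the ipsilateral and contralateral ganglion of an animal joined by a line. For Reg3b the lines of animals 1, 3 and 5 lie above those of animals 2, 4 and 6 at both ends, from 22.8 to 37.97 CPM ipsilaterally against 4.25 to 7.01 CPM.

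Over the females at 1 week, ipsilateral and contralateral Reg3b of the same animal gave Pearson r = 0.80 (exact permutation p = 0.0169, adjusted 0.101 over 6 such correlations) and Spearman rho = 0.89 (exact permutation p = 0.0123), and r = 0.69 without the 2 animals farthest from the median. It does not pass the adjustment. Among ipsilateral libraries of an arm, 13 correlations between members or of Reg3b with Atf3, Socs3 and Sprr1a were computed where values did not fall into clusters, and the smallest adjusted p was 0.487. Reg3b and Reg3a gave r = 0.38 (n = 7, exact permutation p = 0.439) in males at 1 week and r = 0.54 (n = 7, exact permutation p = 0.222) in females at 1 week, and the second became -0.90 without the 2 farthest libraries. At 24 h the ipsilateral libraries of replicates 1 and 5 had the lowest Reg3b (16.6 and 15.5 CPM) and also the lowest Atf3 (161 and 167 CPM, against 304 to 372 CPM in the other 4) and Socs3 (25.4 and 32.1 CPM, against 51.5 to 62.4 CPM). Values in this arm fell into clusters, so no correlation of Reg3b with Atf3 or Socs3 was computed. The 2 libraries were singled out after the values were seen, in the arm Reg3b was chosen on, and no test was made.

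Over the 10 group means of log2(CPM + 0.1), Reg3b and Reg3a had Pearson r = 0.96. The 5 genes whose group means ran closest to Reg3b were Tbc1d20 (r = 0.99), Myd88, Gadd45g, Pvr and Jak2, the last a kinase of cytokine receptors. Closest to Reg3a were Vgf, a neuropeptide precursor (r = 0.99), Atf3, R3hcc1l, Jun and Ankrd33b. Closest to Reg3g were Hopx (r = 0.97), Tpbg, Abi3, Kcnmb4 and Ripk3. Group sums of Reg3g were 0 to 2 counts contralaterally and 5.11 to 35.5 ipsilaterally. Its likeness therefore rests on few reads and on the added 0.1 CPM. The likeness was sought among 13710 genes and describes 10 points that share the split into injured and uninjured sides.

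Genes of the IL-6 family and of STAT3 signalling, listed because Reg3 genes are known as STAT3 targets, rose in part. By edgeR, 6 of 18 tested members were called higher at 24 h in males, 11 of 17 in males at 1 week, 10 of 17 in males at 5 weeks, 11 of 18 in females at 1 week and 10 of 18 in females at 5 weeks; the members called lower were Jak1 in males at 5 weeks and Il6st and Il11ra1 in females at 1 week. The median log2 fold change of the list was 0.11, 0.53, 0.25, 0.46 and 0.25 in the same order of arms, against -0.01, 0.01, -0.00, 0.01 and 0.01 over all genes tested. The background shares of higher calls are those given above for each arm.

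Il6, the cytokine itself, was near absent contralaterally: in males at 24 h it averaged 3.28 ± 1.78 CPM ipsilaterally, against 0.0467 ± 0.0721 CPM contralaterally (SD, n = 6 each). Its log2 fold change was 5.99 at 24 h in males, 5.61 in males at 1 week, 4.47 in males at 5 weeks, 6.12 in females at 1 week and 5.13 in females at 5 weeks, each called by edgeR. Socs3, the STAT3-induced feedback inhibitor, rose by 2.63, 2.61, 1.91, 2.48 and 1.90 in the same order, and Stat3 by 0.54, 0.46, 0.24, 0.37 and 0.31. The kinase Jak2 and the receptors Osmr and Lifr were called higher in all 5 arms. Lif, another cytokine of the family, had a log2 fold change of -0.49 at 24 h (adjusted p = 0.385 by edgeR) and was called higher at 1 and 5 weeks, by 1.14 and 1.18 in males and 1.03 and 1.31 in females; Clcf1 likewise was called higher at 1 and 5 weeks and not at 24 h. Cntf was called in no arm, with adjusted p between 0.118 and 0.801 by edgeR.

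**Figure D5:**
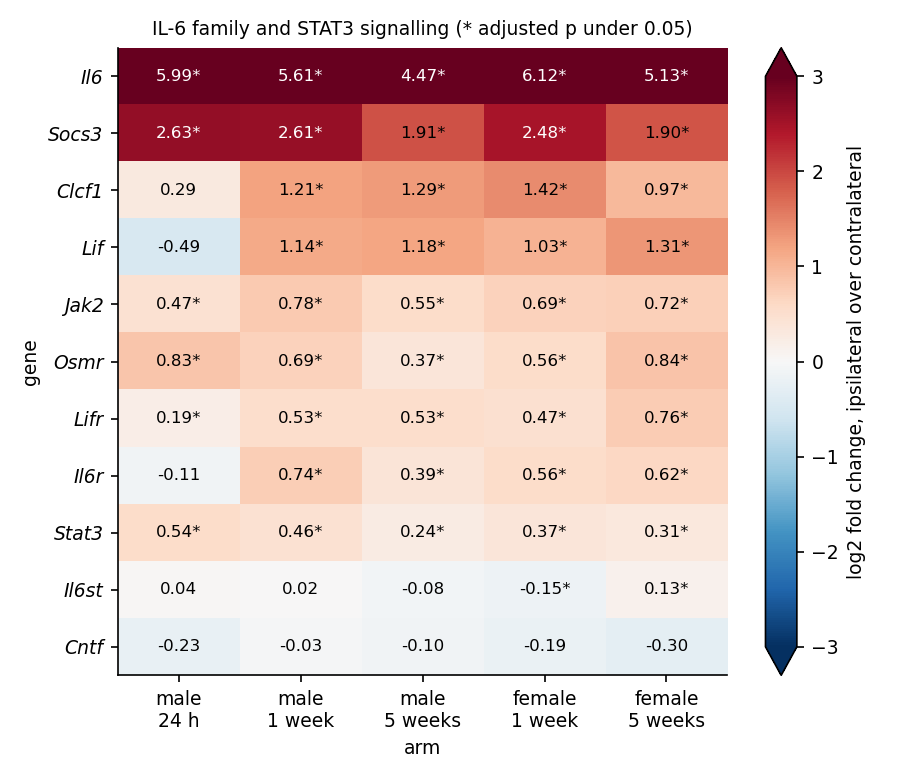
Log2 fold change, ipsilateral over contralateral, of 11 genes of the IL-6 family and STAT3 signalling in each arm, by colour and number, with a star where the edgeR adjusted p is under 0.05. Il6 and Socs3 lead in every arm (4.47 to 6.12 and 1.90 to 2.63); Lif, Clcf1 and Il6r carry a star at 1 and 5 weeks and none at 24 h.

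The cytokines that drive Reg3 genes in the gut were hardly read. Il22 was at 0 in every contralateral library and reached at most 5 counts summed over an ipsilateral group (males at 1 week), and Il17a at most 4. Of the 9 genes of the IL-22 and IL-17 axis, 5 were tested; 4 were called higher in males at 1 week (Il10rb, Il17ra, Il17rc and Il17re, log2 fold changes of 0.36, 0.58, 0.30 and 1.01), and 2 were called higher in each of males at 5 weeks, females at 1 week and females at 5 weeks. Il22ra2, a soluble receptor that binds IL-22, fell by 0.64 in females at 5 weeks (adjusted p = 0.0316 by edgeR). The median log2 fold change of the 5 was 0.18, 0.36, 0.24, 0.20 and 0.25 from males at 24 h to females at 5 weeks. Over all genes tested it was -0.01, 0.01, -0.00, 0.01 and 0.01 in the same order. Of all genes tested, 23.6% were called higher in males at 1 week and 16% in males at 5 weeks. In females 23.9% were called higher at 1 week and 22.9% at 5 weeks. Whether 2 of 5 exceeds these shares was not tested.

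Other secreted antimicrobial proteins were called mainly in males at 1 week. Of 8 tested, 6 were called higher in males at 1 week by edgeR (Camp, Lyz2, Ngp, S100a8, S100a9 and Slpi, log2 fold changes between 1.48 and 1.80), Lyz2 and Slpi in females at 1 week, and Lyz2 at 5 weeks in both sexes. The member called at 24 h was Pla2g2a, which fell by 1.82. The medians of the list were -1.55, 1.58, -0.08, -0.99 and -0.49 from males at 24 h to females at 5 weeks. The shares of all genes called higher are those given above for each arm. Lcn2, induced with Reg3 genes in inflamed gut, was called in no arm (adjusted p between 0.640 and 0.964 by edgeR). Camp, Ngp, S100a8 and S100a9 are neutrophil genes, and in males at 1 week 8 of 9 neutrophil and mast cell markers, these 4 included, and 6 of 6 erythrocyte markers were also called higher; their part in that result was not tested.

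Extl3, the proposed receptor, was present at 92.1 to 110 CPM as a mean in every group. Its log2 fold change was -0.06, -0.04 and -0.03 in males at 24 h, 1 week and 5 weeks; it fell by 0.16 in females at 1 week (adjusted p = 0.001 by edgeR) and rose by 0.13 in females at 5 weeks (adjusted p = 0.010 by edgeR). The nerve injury list (Atf3, Sprr1a, Gal, Npy, Vip, Gap43, Sox11, Jun, Gadd45a and Csrp3) had 9 of 10 members higher at 24 h and 10 of 10 in each other arm, with medians of 2.87, 4.84, 4.62, 5.05 and 4.24. Background shares of higher calls are again those of each arm given above. Atf3 changed by 4.74, 4.80, 4.46, 5.27 and 4.58 and the peptide gene Npy, not called at 24 h, by 8.56, 7.97, 7.61 and 8.74 from males at 1 week to females at 5 weeks. Reg3b at 24 h (4.52) was close in fold to Atf3, a description of the contrast the gene was chosen on.

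Markers of the organs that make most Reg3 protein were low. The summed level of 13 pancreatic acinar markers was 10.2 to 11.3 CPM ipsilaterally, against 8.45 to 12.7 CPM contralaterally, in males at 24 h and 7.79 to 10.5 CPM, against 12.02 to 14.3 CPM, in males at 1 week. It was 8.93 to 10.6 CPM, against 11.1 to 14.9 CPM, in males at 5 weeks, 8.46 to 10.6 CPM, against 10.3 to 12.6 CPM, in females at 1 week and 7.87 to 12.2 CPM, against 10.6 to 17.1 CPM, in females at 5 weeks. Of the 4 members tested, 0 were called higher in any arm by edgeR, also at an unadjusted p under 0.05, and Pnlip was called lower in 4 arms. The defining genes Prss1, Cela2a and Cpa1 reached at most 2 counts in any library and Amy2a3 at most 0.25. The 9 intestinal epithelium markers summed to 5.59 to 7.08 CPM ipsilaterally, against 2.72 to 4.01 CPM contralaterally, in males at 24 h and to 4.25 to 6.66 CPM, against 2.01 to 3.88 CPM, in males at 1 week. They summed to 3.81 to 5.25 CPM, against 2.19 to 3.58 CPM, in males at 5 weeks, 6.59 to 9.08 CPM, against 2.78 to 4.15 CPM, in females at 1 week and 3.88 to 5.89 CPM, against 3.98 to 4.8 CPM, in females at 5 weeks. The median of these sums was higher on the injured side in every arm. In females at 5 weeks it was 5.22 CPM, against 4.58 CPM contralaterally, with overlapping ranges. Cdh17 was the member called higher in all 5 arms, by 0.78, 2.47, 1.37, 2.26 and 1.53, and Muc2 was called higher at 24 h and in females at 1 week and lower in females at 5 weeks; Vil1 and Fabp2 reached at most 16 and 15 counts in any library. The part of these genes in the Reg3 result was not tested.

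Most macrophage markers were called higher at 1 week in both sexes and at 5 weeks in females, and fewer in males at 5 weeks. Of all genes tested, 23.6% were called higher in males at 1 week and 16% in males at 5 weeks. In females these shares were 23.9% at 1 week and 22.9% at 5 weeks. At 24 h in males the 12 markers summed to 208 to 321 CPM ipsilaterally, against 194 to 506 CPM contralaterally, and the ranges overlapped. In males at 1 week 10 of 12 were called higher by edgeR (308 to 852 CPM, against 127 to 306 CPM), in males at 5 weeks 4 were called higher and 1 lower (323 to 601 CPM, against 263 to 340 CPM), and in females 10 of 12 were called higher at 1 week (305 to 547 CPM, against 117 to 202 CPM) and at 5 weeks (271 to 557 CPM, against 73.0 to 279 CPM). The part of these cells in the Reg3 result was not tested. In females at 1 week ribosomal RNA genes took 0.970% of counts ipsilaterally, against 2.25% contralaterally, without overlap; the part of this difference in the result was not tested. At 1 week 23.4% of all genes tested were called lower in males and 21.8% in females. Of 7 myelinating Schwann cell markers 5 were called lower in each sex at 1 week, and of 14 sensory neuron markers 9 were called lower in each sex at 1 week, while 4 were called higher in males and 2 in females.

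Of the neighbours, Reg1a, a related lectin of pancreas, was read at a level like that of Reg3g and leaned the same way. It had 27 counts ipsilaterally and 1 contralaterally in males at 1 week (exact permutation p = 0.00874, adjusted 0.0140), 14 and 0 in males at 5 weeks (exact permutation p = 0.167), 13 and 3 in females at 1 week (exact permutation p = 0.0326, adjusted 0.0435) and 18 and 0 in females at 5 weeks (exact permutation p = 0.0152, adjusted 0.0220), with 18 and 4 in males at 24 h. The adjusted values of Reg1a come from the family of 16 tests that also holds Reg3b and Reg3a. An adjustment over Reg3g and Reg1a alone would be stricter and was not made. By edgeR without the low-count filter Reg1a was called in males at 1 and 5 weeks (adjusted p = 0.00374 and 0.0257). That fit also called Reg1a in females at 5 weeks (adjusted p = 0.00569). It did not call Reg1a in females at 1 week (adjusted p = 0.171) or in males at 24 h (adjusted p = 0.251). The Reg3b pseudogene LOC100361595, between Reg3b and Reg3a, was at 0 in every library. Reg4, on chromosome 2, had 12 counts over all 62 libraries.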

How the data were processed

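The submitters' processing notes name featureCounts 1.6.4, STAR 2.7.2b, cutadapt 2.5 and bcl2fastq 2.20.0.422, with the build mRatBN7.2. The tables deposited by the authors hold estimated counts for each gene: shared reads enter as fractions, and 74.1% and 78.2% of nonzero values are whole in the 2 tables. They were rounded to whole numbers, which moved no total by more than 0.0014%. Genes were kept by filterByExpr with a minimum count of 10 and tested with the robust quasi-likelihood test of edgeR 4.0.16 on TMM-scaled libraries (R 4.3.3), in a fit per table and in a joint fit for sex, with Benjamini-Hochberg adjustment over all genes and a threshold of 0.05. SE was taken from the F statistic (size of the log2 fold change over root F), and 95% intervals are 1.96 SE. Such intervals are somewhat narrower than the F test implies. Reg3g and Reg1a, below the filter, and ratios and correlations were tested by exact two-sided permutation over libraries. The side tests of Reg3g, Reg1a and the ratio, like the main edgeR fit, took the libraries as unpaired. DESeq2 1.42.0 and limma 3.58.1 served as alternatives. The members and all gene lists were chosen with earlier results of these data known; genes named from a list are those fixed by name and up to 6 with the smallest p per comparison, and likeness is by Pearson r over group means. Others, such as Lcn2 or Cdh17, were named after their values were seen. A gene of the IL-6 family list is not reported here and stays out of its counts.

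Same-numbered sides carry one animal code in the labels of females and of males at 24 h. For males at 1 and 5 weeks the deviations of every same-numbered pair correlated, at 0.196 or more (medians over pairs 0.395 and 0.272). The numbers were therefore taken as pairs, which the labels do not state. The own number gave the highest correlation in 7 of 7 and 5 of 5 of these pairs. In arms with animal codes it did so in 4 of 6 (males at 24 h, lowest -0.0162), 6 of 7 (females at 1 week, lowest 0.0958) and 6 of 6 (females at 5 weeks). Scripts were checked on simulated counts.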

Additional observations from a re-analysis of the deposited data

Results flagged for a closer look

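In 28 groups of 5 to 7 libraries tested for a library far from the others, 6 were flagged. Chance flags about 1 in 20 where values vary continuously. Reg3a was lowest at 5.17 CPM in ipsilateral replicate 3 of males at 1 week and at 3.69 CPM in ipsilateral replicate 1 of males at 5 weeks, which was also the lowest of its group in Reg3b. Reg3b was lowest at 0.332 CPM in contralateral replicate 6 of males at 24 h. The other 3 are single contralateral libraries with 1 or 2 counts of Reg3g where the rest of the group had 0: 0.0921 CPM in replicate 3 of females at 5 weeks, 0.0312 CPM in replicate 3 of males at 1 week and 0.0921 CPM in replicate 2 of males at 24 h. A lone library above 0 is always flagged, so the chance rate does not hold for these 3.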

How the results depend on the processing

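For Reg3b and Reg3a, 22 results gave 520 values under other scaling, filtering, rounding, tools, a replicate block and leaving out each library, and 502 kept their direction and side of the threshold. Of the other 18, 1 is the male change of Reg3b from 1 to 5 weeks, -1.54 with the replicate block (adjusted p = 0.0184). The rest are signs near 0 when a library is left out: the female change of Reg3b ran from -0.64 to 0.26, and the female minus male difference of Reg3a at 1 week from -0.38 to 0.15. The block changed no other call of a member; it could not be fitted for the contralateral week contrasts.

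Counts of called genes moved by over 1.5 times in the following: the male week contrast had 40, with 140 by DESeq2, 497 with the replicate block and 26 to 98 with a library left out; the 24 h arm had 2560, and 1604 when fitted alone; the sex difference had 214 at 1 week and 405 at 5 weeks, and 517 and 697 with the replicate block. The causes were not tested.

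For Reg3g the difference in mean log2(CPM + 0.1) with a library left out ran from 1.05 to 1.57 in males at 5 weeks (exact permutation p = 0.0873 without any 1 of the 5 contralateral libraries), from 0.64 to 1.00 in females at 1 week (p = 0.0210 without ipsilateral replicate 3, 4 or 5) and from 0.50 to 0.85 in females at 5 weeks (p = 0.0281 without ipsilateral replicate 2 or 6). Without a filter, edgeR gave females at 1 week 4.46 (adjusted p = 0.00388). The correlation of Reg3b with Reg3g in females at 1 week was 0.032 at log2(CPM + 1), against -0.041. The 8 ratio tests kept their calls without each library in turn and with 0.1 CPM added. Depth limits Reg3g and Reg1a most.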
